A study of Caenorhabditis elegans with 12 samples.

Results

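Transcript levels in whole adult Caenorhabditis elegans were compared between animals moved from 23 °C to 17 °C 4 h earlier and animals taken just before the move (0 h). The comparison used 8 of the series' 12 arrays, 4 at 4 h and 4 at 0 h, and paired them by replicate number. It was read through 20766 of 22548 probe sets, those that the platform annotation assigns to 1 gene symbol, which together cover 17118 genes. A probe set is the group of oligonucleotides that reads a transcript, and a gene with several was represented by its brightest. All values below are log2 signals after RMA, a method that corrects, normalises and summarises probe intensities.

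All animals of both groups were wild-type N2 Bristol, the standard laboratory strain, synchronised by bleaching and grown from embryos at 23 °C for 2.5 days to adulthood, and RNA came from the whole body. The 4 h animals had been at 17 °C for their last 4 h, and the 0 h animals had been at 23 °C throughout. A time-matched group left at 23 °C was not analysed here, so temperature cannot be told apart from the passing of 4 h or from handling. The labels do not say whether replicates were separate cultures, and p-values therefore measure only the spread between these samples. Because the RNA came from whole animals, fewer cells of a type and less RNA per cell cannot be told apart. The yolk protein genes vit-2 and vit-6, which the adult intestine transcribes, were bright on every array, vit-2 at 12.63, 12.58, 12.72 and 12.63 at 4 h, against 12.71, 12.50, 12.74 and 12.59 at 0 h, and vit-6 at 13.90, 13.88, 13.97 and 13.92 at 4 h, against 13.97, 13.87, 13.92 and 13.87 at 0 h.

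Both temperatures lie within the range in which C. elegans grows and reproduces, and 23 °C is towards its warm end. Worms sense temperature mainly with the AFD neurons and set their behaviour by the temperature at which they were grown. Temperature also acts on tissues outside the nervous system, where heat-shock chaperones, membrane lipid enzymes and insulin signalling are known to respond to it. The intestine is the main site of digestion, fat storage and detoxification.

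After 4 h at 17 °C, 295 genes were higher and 211 were lower than at 0 h, out of 17118 (limma, paired by replicate number, Benjamini-Hochberg adjusted p under 0.05). That is 2.96% of genes called, with 1.72% called higher and 1.23% called lower. An unadjusted p under 0.05 was found for 3035 genes, or 17.7%. Of the single-symbol probe sets, 596 were called, or 2.87%. Called rises included the endoribonuclease gene endu-2, several intestinal protease genes, and genes of fatty acid breakdown and sphingolipid synthesis. Most called cytochrome P450 and UDP-glucuronosyltransferase genes fell, as did the metallothionein gene mtl-1 and small heat-shock genes. Changes were mostly small, with a median size of 0.52 log2 units among called rises and 0.51 among called falls. At least 1.5-fold was reached by 119 rises and 75 falls, and at least 2-fold by 27 rises and 18 falls. All 506 called genes moved the same way in each of the 4 pairs, as did 4661 of all genes. The 4 h arrays lay wholly above the 0 h arrays for 265 of the 295 rises, and wholly below them for 187 of the 211 falls. Over all genes the groups did not overlap for 1604 (9.37%), of which 784 were higher and 820 lower at 4 h. The count rests on the 4 pairs together. It was 273 without replicate 1, 220 without replicate 2, 109 without replicate 3 and 116 without replicate 4, and of the 506 genes 246, 210, 108 and 113 were still called in those fits.

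The distributions of the arrays were alike, with medians of 5.50 to 5.55 and lower quartiles of 3.53 to 3.62. Pearson's r between arrays across probe sets was 0.995 to 0.998. The median change over all genes was -0.01, and the changes below can be read against it. Of the 17118 genes, 9353 lay below 0 and 7765 above it. Calls were not spread evenly over signal levels. Of the genes ranked by mean signal and split into 4 equal bins, 6.87% were called in the third bin, 2.85% in the second, 1.57% in the brightest and 0.537% in the dimmest. Near the lower quartile signal over background is unknown, so the size of a change there is uncertain. At 4 h, 7 called rises and 18 called falls lay that low.

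**Figure D1:**
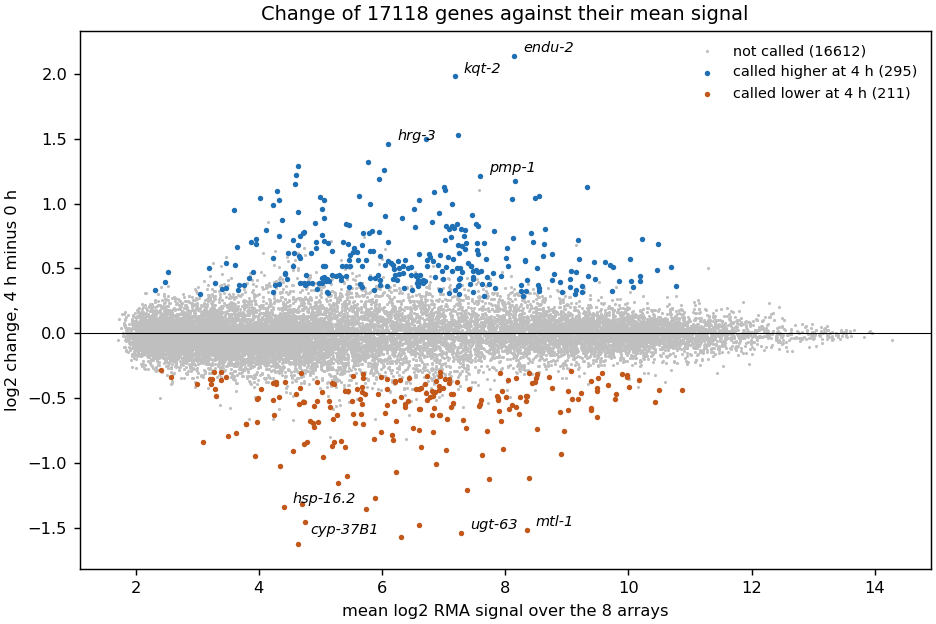
Log2 change at 4 h minus 0 h of each of the 17118 genes (vertical axis, log2 units) against its mean log2 RMA signal over the 8 arrays (horizontal axis), with 295 genes called higher, 211 called lower and the rest in grey. The called genes lie mostly at intermediate signals, and endu-2 at the top of the plot changed by 2.14.

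The largest rise was that of endu-2, an EndoU-family endoribonuclease gene that is known in C. elegans from work on cold tolerance. Its signal was 9.31, 9.18, 9.26 and 9.08 at 4 h, against 6.70, 6.91, 7.62 and 7.05 at 0 h. The 4 h arrays were bunched within a narrow range, all of them well above the 0 h arrays, which varied more. The change was 2.14 log2 units or 4.40-fold (SE 0.148, adjusted p = 0.00327), and its other probe set changed by 2.13. The gene next to it on the X chromosome, kqt-2, encodes a KCNQ-type voltage-gated potassium channel. It was at 8.09, 8.23, 8.25 and 8.12 at 4 h, against 6.11, 5.89, 6.46 and 6.30 at 0 h, again without overlap. It rose by 1.98 (SE 0.100, adjusted p = 0.00199), but its 2 other probe sets changed by only 0.27 and 0.38, and neither passed (lowest adjusted p = 0.0740).

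Other large rises were those of genes of different kinds. The gene hrg-3, whose product carries haem out of the intestine to other tissues and to embryos, was at 6.38, 6.42, 7.11 and 7.42 at 4 h, against 5.31, 5.09, 4.99 and 6.10 at 0 h. Its 4 h arrays were all above the 0 h arrays, although replicate 4 stood high at both times. The rise was 1.46 (SE 0.162, adjusted p = 0.00960). The cytochrome P450 gene cyp-35D1, of a family that responds to foreign compounds, was at 6.08, 7.22, 6.40 and 6.94 at 4 h, against 5.13, 5.83, 4.98 and 5.68 at 0 h. Replicate 2 was the highest array at each time, and each 4 h array was above its own partner by 0.95, 1.399, 1.42 and 1.26. It rose by 1.26 (SE 0.0890, adjusted p = 0.00327). The peroxisomal ABC transporter gene pmp-1 was at 8.32, 8.08, 8.49 and 7.91 at 4 h, against 7.03, 6.74, 7.34 and 6.84 at 0 h. Levels of replicates 1 and 3 exceeded those of 2 and 4 at both times, while the step between the times was similar in each pair (1.29, 1.34, 1.15 and 1.07). It rose by 1.21 (SE 0.0666, adjusted p = 0.00199).

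The 10 others of the 15 largest rises were the F-box gene fbxc-58 (1.22) and genes known only by clone names. These were Y37H2A.14 (1.53), C10C5.5 (1.501), C08E8.4 (1.32), K05B2.4 (1.29), M01G12.9 (1.19), Y51A2D.13 (1.17), R07H5.9 (1.15), Y32F6A.4 (1.13) and F15E6.3 (1.13). None of the 15 had overlapping groups, and adjusted p-values ran from 0.00199 for kqt-2 to 0.0165 for R07H5.9. The second probe set of Y32F6A.4 changed by -0.01, while those of C08E8.4 and F15E6.3 rose by 1.14 and 0.93. Without replicate 4 the calls of C10C5.5 and hrg-3 were lost, without replicate 3 that of F15E6.3, and without either of them those of M01G12.9 and R07H5.9 (adjusted p up to 0.116). The other rises named above were called in each fit that left out 1 replicate number. Genes known only by a clone name made up 203 of the 506 called genes (40.1%), and 39.3% of all genes.

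**Figure D2:**
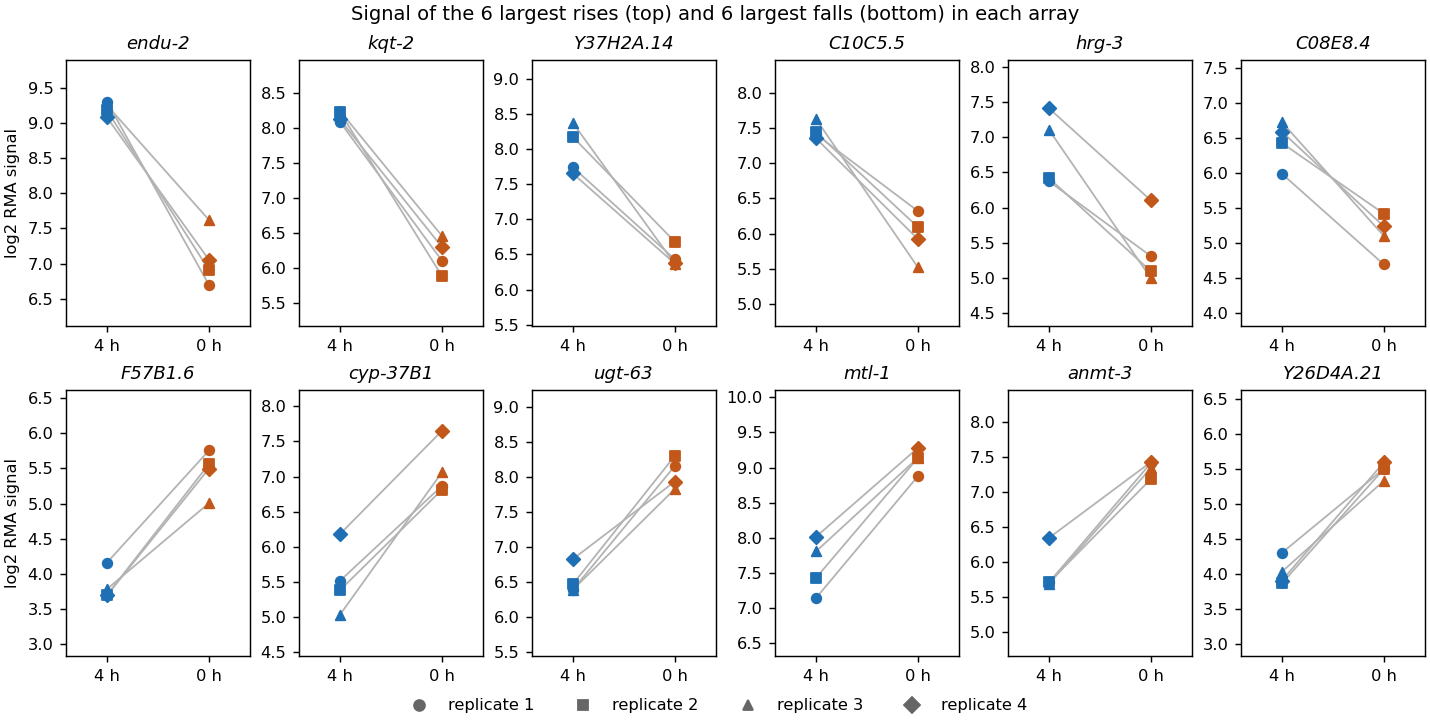
Log2 RMA signal (vertical axis) of the 6 largest rises (top) and the 6 largest falls (bottom) in each 4 h array (left) and 0 h array (right), with lines joining arrays of the same replicate number. In each of these 12 genes the groups do not overlap, as for endu-2, where 4 h arrays read 9.31, 9.18, 9.26 and 9.08 and 0 h arrays 6.70, 6.91, 7.62 and 7.05.

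Among genes with a single-symbol probe set, falls were led by F57B1.6, a clone-named gene, by a cytochrome P450 gene and by a UDP-glucuronosyltransferase gene. Larger changes, of -2.79 and -2.55, were those of 2 probe sets that hsp-16 genes share, which stand outside this ranking and are given below. F57B1.6 was at 4.16, 3.69, 3.78 and 3.69 at 4 h, against 5.76, 5.56, 5.00 and 5.50 at 0 h, so that the 4 h arrays reached down to near the lower quartile and the size of its fall of 1.63 is uncertain. The cytochrome P450 gene cyp-37B1 was at 5.51, 5.38, 5.03 and 6.18 at 4 h, against 6.86, 6.81, 7.06 and 7.65 at 0 h. Replicate 4 was the highest array at both times, and no 4 h array reached the lowest 0 h array. It fell by 1.57 (SE 0.116, adjusted p = 0.00327). The gene ugt-63, of the enzymes that attach sugars to small molecules, was at 6.39, 6.47, 6.39 and 6.83 at 4 h, against 8.16, 8.30, 7.83 and 7.94 at 0 h. The highest 4 h array, at 6.83, stayed well below the lowest 0 h array, at 7.83, and the fall was 1.54 (SE 0.124, adjusted p = 0.00362).

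The gene mtl-1 encodes a metallothionein, a metal-binding protein of the intestine that heat, cadmium and the FOXO factor DAF-16 are known to induce. It was at 7.14, 7.42, 7.80 and 8.01 at 4 h, against 8.88, 9.14, 9.14 and 9.28 at 0 h. All 4 h arrays were lower than all 0 h arrays, and the fall was 1.51 (SE 0.0979, adjusted p = 0.00305). The amine N-methyltransferase gene anmt-3 was at 5.70, 5.70, 5.69 and 6.34 at 4 h, against 7.41, 7.18, 7.34 and 7.42 at 0 h. Replicate 4 stood above the other 4 h arrays, which were nearly equal, and still lay below every 0 h array. It fell by 1.48 (SE 0.108, adjusted p = 0.00327). The early zygotic gene sdz-6 (-1.11), the nematode-specific peptide gene nspe-7 (-1.15), Y26D4A.21 (-1.45), T05E7.1 (-1.36), ZC204.12 (-1.27), C50A2.3 (-1.21), F21C10.10 (-1.12) and Y40C7B.4 (-1.10) also fell without overlap.

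The C-type lectin gene clec-174 was the exception among the 15 largest falls, since its groups overlapped. It was at 3.78, 3.06, 4.06 and 5.26 at 4 h, against 4.98, 4.96, 5.54 and 5.95 at 0 h, and replicate 4 was the highest at both times. The fall of 1.32 (adjusted p = 0.0173) therefore rests on the pairing, and without the replicate block it was not called (adjusted p = 0.135). It was also lost without replicate 3 (adjusted p = 0.105), as was sdz-6 (0.0509), and hsp-16.2, described next, was lost without replicate 4 (0.0598). The other 12 of the 15 falls were called in each fit that left out 1 replicate number.

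**Figure D3:**
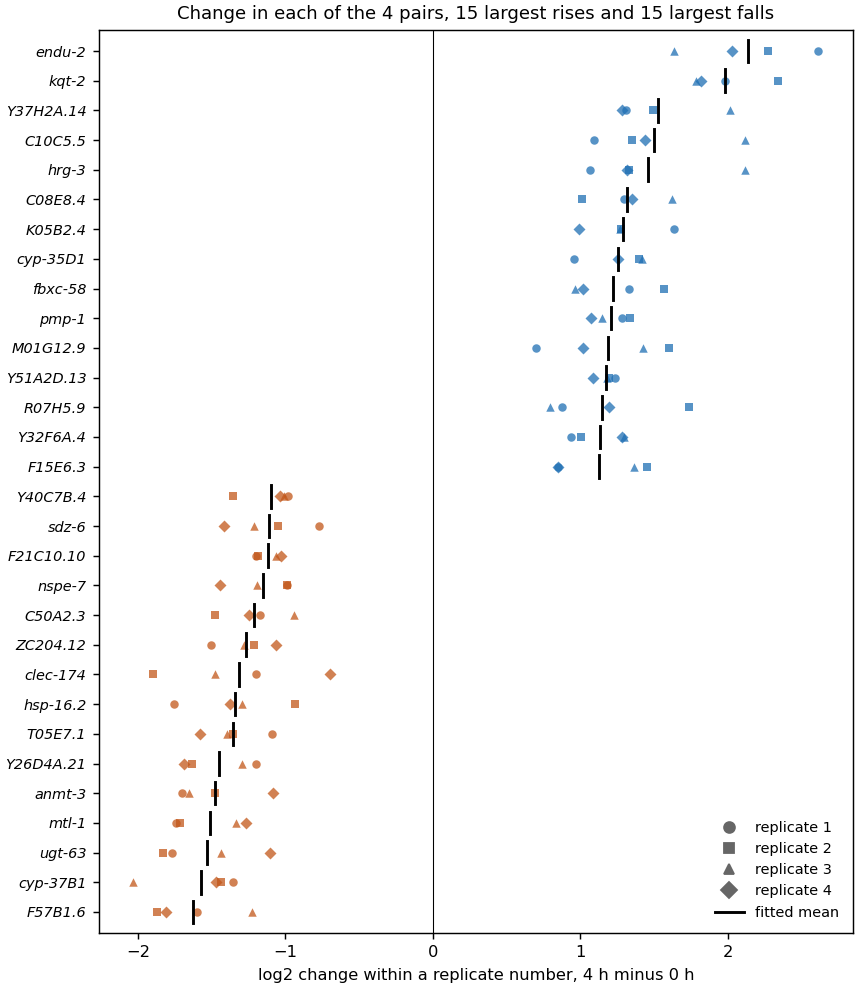
Log2 change within each of the 4 replicate numbers, 4 h minus 0 h (horizontal axis, log2 units), for the 15 largest rises (upper rows) and the 15 largest falls (lower rows), with a bar at the fitted mean. Every point of a rise lies right of 0 and every point of a fall left of 0, and the 4 pairs of kqt-2 read 1.98, 2.34, 1.78 and 1.82.

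The size of the change was similar in the 4 pairs. The median change of the called rises was 0.51, 0.54, 0.55 and 0.52 in pairs 1 to 4, and that of the called falls -0.55, -0.49, -0.48 and -0.51, values that the calling itself favours. Over all 17118 genes, the standard deviation of the change was 0.216 to 0.251 in a pair. Pairs share no array, and across genes, which are not independent replicates, their changes correlated with r of 0.307 to 0.428.

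Heat-inducible chaperones hold unfolded proteins in a soluble state and are strongly induced by heat, and 2 of the 3 that a single-symbol probe set measured were lower at 4 h. Of the small heat-shock genes, hsp-16.2 was at 2.94, 4.02, 3.91 and 4.08 at 4 h, against 4.69, 4.95, 5.21 and 5.46 at 0 h. The 4 h arrays were all lower, replicate 1 by the widest margin, and the fall was 1.34 (SE 0.124, adjusted p = 0.00567). Its neighbour hsp-16.41 was at 2.78, 2.44, 2.60 and 2.87 at 4 h, against 3.28, 3.42, 3.34 and 3.99 at 0 h, a fall of 0.84 (adjusted p = 0.0140) without overlap. Both lie near or under the lower quartile at 4 h, so these sizes are uncertain. The probe set shared by hsp-16.1 and hsp-16.11 was brighter, with a mean of 5.02 at 4 h, against 7.57 at 0 h, and was called lower (-2.55). That shared by hsp-16.48 and hsp-16.49 had a mean of 3.55 at 4 h, near the lower quartile, against 6.33 at 0 h, and was also called lower (-2.79). The call of hsp-16.41 was lost without replicate 2, 3 or 4 and that of hsp-16.2 without replicate 4 (adjusted p up to 0.0834). The inducible HSP70 gene hsp-70 was at 3.14, 3.42, 3.16 and 3.14 at 4 h, against 3.71, 3.41, 3.60 and 3.51 at 0 h, and did not pass (-0.34, adjusted p = 0.145). Another pair of HSP70 genes, F44E5.5 and F44E5.4, has no single-symbol probe set in the comparison, and both probe sets that they share were called lower (-0.88 and -0.76), at signals near or under the lower quartile at 4 h.

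Chaperones made without heat stress did not pass. Of 26 constitutive cytosolic chaperone genes, 0 were called by limma in either direction and 7 had an unadjusted p under 0.05, against 17.7% of all genes. Their changes nevertheless lay mostly on the same side, with 24 of 26 below 0 and a median of -0.07, against -0.01 over all genes. The most significant was the co-chaperone gene dnj-19 (-0.23, adjusted p = 0.0812). The major chaperone genes hsp-1 and hsp-90 stood at -0.04 and -0.08, and the heat-shock factor gene hsf-1 at 0.11 (adjusted p = 0.358). The small heat-shock genes outside the heat-inducible list had 7 of 8 members below 0 and 0 with an unadjusted p under 0.05.

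Cathepsin-like cysteine proteases digest protein in the gut lumen and in lysosomes, and all that were called were higher at 4 h. The list holds 12 genes, of which 5 rose and 0 fell, 7 missed the threshold and 11 lay above 0 with a median of 0.17. That is 41.7% called, against 2.96% of all genes. The cathepsin B-like gene cpr-1 was at 8.08, 9.26, 8.59 and 8.57 at 4 h, against 7.58, 7.93, 7.42 and 7.44 at 0 h. It showed the largest rise of the list, 1.03 (SE 0.134, adjusted p = 0.0156), and its groups did not overlap. The related cpr-3 was at 7.81, 7.71, 7.69 and 7.75 at 4 h, against 6.88, 6.77, 7.12 and 7.01 at 0 h, a rise of 0.79 (adjusted p = 0.00715), and the second probe set showed 0.81. The genes cpr-4 and cpr-8 rose by 0.44 and 0.47, and cpr-5, the neighbour of cpr-8, by 0.57. In fits without 1 replicate number, cpr-3 was lost without replicate 4, cpr-5 and cpr-8 without replicate 1, 3 or 4, and cpr-1 and cpr-4 without replicate 2, 3 or 4 (adjusted p up to 0.149).

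Other lysosomal and digestive genes were mixed. Of 15 aspartyl proteases 1 rose, asp-17 by 0.70 (adjusted p = 0.00777), which is also listed among genes associated with cold. Of 27 autophagy genes 1 rose, the receptor gene sqst-1 by 0.65 (adjusted p = 0.0204), and a second probe set showed 0.56. Of 19 subunits of the proton pump that acidifies lysosomes and the gut lumen 1 fell, vha-6 by 0.30 (adjusted p = 0.0395). Outside the lists, and chosen after its value was seen, the legumain-type protease gene lgmn-1 was at 10.40, 10.46, 10.88 and 10.61 at 4 h, against 9.76, 9.75, 10.03 and 9.89 at 0 h, and rose by 0.73 (adjusted p = 0.00404). Chosen in the same way, the serine carboxypeptidase genes ctsa-4.2 and ctsa-1.2 rose by 0.82 and 0.53, and ctsa-3.1 fell by 0.39. The rise of lgmn-1 was called in each fit without 1 replicate number. Those of asp-17 and ctsa-4.2 were lost without replicate 3, ctsa-1.2 without replicate 2, 3 or 4, and sqst-1, vha-6 and ctsa-3.1 without any 1 number (adjusted p up to 0.176). Without the replicate block vha-6 (adjusted p = 0.0656) and ctsa-3.1 (0.0822) were not called.

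Called members of the peptide transporter, solute carrier and potassium channel lists were mostly rises, which made up 58.3% of all called genes. The intestinal peptide transporter gene pept-1, which takes up dietary di- and tripeptides, was at 7.92, 8.01, 7.90 and 7.81 at 4 h, against 6.91, 7.03, 7.09 and 6.97 at 0 h. Every 4 h array was higher than every 0 h array by a clear margin, and the rise was 0.91 (SE 0.0619, adjusted p = 0.00316). With the amino acid transporter gene aat-7 (0.50, at a low level) it made up the 2 rises among 28 peptide and amino acid transporters. Of these 0 fell, and 7.14% were called, against 2.96% of all genes. Of 87 other solute carriers, 5 rose and 1 fell (6.9% called). Among them were the nucleoside transporter gene ent-4, at 7.31, 7.42, 7.32 and 7.51 at 4 h, against 6.41, 6.36, 6.48 and 6.62 at 0 h, higher by 0.93, slc-17.6 (0.48), slc-5A12 (0.45) and slcr-46.3 (0.33). Besides kqt-2, the TWK-type potassium channel genes twk-26 (0.40) and twk-1 (0.31) rose among 67 potassium channels, of which 0 fell (4.48% called). Over all members, 49 of the 87 solute carriers and 32 of the 67 potassium channels lay above 0, so that the lists as a whole did not lie on one side. The rises of pept-1, ent-4 and kqt-2 were called in each fit without 1 replicate number. The call of slc-17.6 was lost without replicate 3 or 4, those of aat-7 and slc-5A12 without replicate 2, 3 or 4, and those of slcr-46.3, twk-1 and twk-26 without any 1 number (adjusted p up to 0.190). Without the block, slcr-46.3 (adjusted p = 0.0957) and twk-1 (0.225) were not called.

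Tissue markers were read to see whether whole tissues shifted. Of 17 intestine markers 13 were above 0 with a median of 0.11, 2 rose (pept-1 and cpr-1) and 1 fell (vha-6). An unadjusted p under 0.05 was found for 10 of the 17, against 17.7% of all genes. Lists of the other non-neuronal body tissues had medians closer to that of all genes and held 0 calls by limma. These were body-wall muscle (26 genes, median -0.05, 6 with an unadjusted p under 0.05), pharynx (19, -0.04, 3) and hypodermis (16, -0.03, 2). Coelomocytes (6, -0.01, 2) also held 0 calls, as did vulva, uterus and spermatheca (11, 0.07, 5), whose median was the next highest after intestine. Sperm protein and pan-neuronal genes, described below, had medians of -0.12 and 0.05 with 1 call each. A list median away from 0 was therefore not particular to the intestine. The part of the intestine markers in the protease and transporter rises was not tested.

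Genes of fatty acid breakdown were called in both directions, more often higher. Beta-oxidation shortens fatty acids stepwise, and in C. elegans peroxisomes it also trims the side chains of ascaroside pheromones. Of 40 beta-oxidation genes, 6 rose, 3 fell and 31 did not pass, with a median of 0.04. Called genes made up 22.5% of this list, against 2.96% of all genes. The enoyl-CoA hydratase gene ech-9 was at 4.99, 4.65, 4.55 and 4.71 at 4 h, against 3.93, 3.47, 3.99 and 3.56 at 0 h, and rose by 0.98 (SE 0.110, adjusted p = 0.00975). For the first step, the acyl-CoA oxidase gene acox-1.5 was at 6.99, 7.01, 6.98 and 6.80 at 4 h, against 6.17, 6.24, 6.06 and 6.05 at 0 h, and rose by 0.82 (adjusted p = 0.00327). A further oxidase gene, acox-3, rose by 0.82, and dhs-28, ech-7 and maoc-1, of later steps, rose by 0.46, 0.48 and 0.40. Unlike these, the oxidase gene acox-1.2 was at 6.13, 6.27, 6.15 and 6.37 at 4 h, against 7.11, 6.96, 7.01 and 6.82 at 0 h, and fell by 0.74 (adjusted p = 0.0139). The hydroxyacyl-CoA dehydrogenase gene hacd-1 fell by 0.51. The genes ech-7, maoc-1, acox-1.2 and hacd-1 are beyond the 4 named by rule and were chosen after their values were seen.

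Fatty acids are activated by acyl-CoA synthetases before they are broken down or built into lipids, and 3 of 23 of these genes rose while 0 fell. They were acs-14 (0.57), acs-17 (0.56, second probe set 0.76) and acs-12 (0.35). That is 13% called, against 2.96% of all genes. The list as a whole did not lie on one side, with 12 of the 23 above 0 and 11 below it. Of 16 genes of peroxisome biogenesis and import, pmp-1 and prx-13 (0.35) rose and pmp-5 fell by 0.42 (18.8% called). Among all these lipid breakdown genes, acox-1.5 and pmp-1 were called in each fit without 1 replicate number. The calls of acox-3, acox-1.2 and acs-14 were lost without replicate 3, ech-9 without replicate 4, acs-17 without replicate 1, 2 or 3, ech-7 without replicate 1, 3 or 4, and dhs-28 without replicate 2, 3 or 4. Those of maoc-1, hacd-1, acs-12, prx-13 and pmp-5 were lost without any 1 number (adjusted p up to 0.175). Without the block ech-7 (adjusted p = 0.0837), acs-12 (0.0912) and pmp-5 (0.145) were not called.

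Sphingolipids, membrane lipids built on a ceramide backbone, are made by enzymes of which 3 of 22 rose and 0 fell, with a median of 0.09. The share called was 13.6%, against 2.96% of all genes. The ceramide glucosyltransferase gene cgt-1 was at 5.45, 4.85, 5.06 and 5.05 at 4 h, against 4.36, 4.12, 4.21 and 3.98 at 0 h. Its groups were far apart, and it rose by 0.93 (SE 0.0784, adjusted p = 0.00446). The dihydroceramide desaturase gene ttm-5 rose by 0.54, its other probe set standing at 0.27, and sptl-2, a subunit of the enzyme of the first step, by 0.50.

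Fatty acid synthesis genes were called in both directions. Of 25 desaturase, elongase and synthesis genes, the palmitate elongase gene elo-2 rose by 0.48 (adjusted p = 0.00972), and elo-5, an elongase of branched-chain fatty acids, fell by 0.44 (adjusted p = 0.0139). A second called fall was that of fat-6, a stearoyl-CoA desaturase gene. It was at 9.18, 8.76, 9.39 and 9.36 at 4 h, against 9.62, 9.64, 9.87 and 10.12 at 0 h, and fell by 0.64 (adjusted p = 0.0182). Its close relative fat-7 was at 4.57, 4.82, 5.04 and 5.35 at 4 h, against 4.00, 4.56, 4.48 and 4.27 at 0 h, and missed the threshold on the other side (0.62, adjusted p = 0.0584). Both genes are close in sequence, and how far the probes of either read the other was not tested. Neither fat-5, a palmitate desaturase gene (0.08), nor paqr-2, which guards membrane fluidity in the cold (0.05), passed.

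In lipid storage and handling, lips-16 rose by 0.37 and lips-10 fell by 0.58 among 29 lipases, and the acyl-CoA-binding gene acbp-8 fell by 0.36 among 23 lipid-binding genes. Of 52 acyltransferase-like genes 3 rose, oac-6 by 0.95, oac-31 by 0.72 (other probe set 0.11) and oac-20 by 0.48, and 0 fell. The share called was 5.77%, against 2.96% of all genes, and 25 of the 52 lay above 0. Outside the lists, and chosen after their values were seen, the diacylglycerol acyltransferase gene dgat-2, of fat storage, fell by 0.73 (adjusted p = 0.0292, second probe set -0.56), and daf-36, which acts on cholesterol in the synthesis of dafachronic acid hormones, fell by 0.62 (adjusted p = 0.00853). Of all these synthesis and storage genes, cgt-1 was called in each fit without 1 replicate number. The calls of oac-6 and daf-36 were lost without replicate 3, oac-31 without replicate 4, ttm-5 and elo-2 without replicate 3 or 4, and lips-10 without replicate 1, 3 or 4. Those of elo-5, fat-6, dgat-2 and oac-20 were lost without replicate 2, 3 or 4, and sptl-2, lips-16 and acbp-8 without any 1 number (adjusted p up to 0.178). Without the block fat-6 (adjusted p = 0.0547), lips-16 (0.149) and acbp-8 (0.0799) were not called.

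Called cytochrome P450 and UDP-glucuronosyltransferase genes were more often lower than higher. Cytochromes P450 oxidise foreign and endogenous compounds, and 7 of 73 fell while 1 rose, cyp-35D1, described above. That is 11% called, against 2.96% of all genes. Besides cyp-37B1, the gene cyp-35C1 was at 6.80, 7.05, 6.94 and 7.202 at 4 h, against 7.57, 7.94, 7.33 and 8.07 at 0 h, and fell by 0.73 (adjusted p = 0.0151), and its other probe set changed by -0.67. The gene cyp-13A2 fell by 0.43 to near the lower quartile. UDP-glucuronosyltransferases attach sugars to such compounds, and 5 of 64 fell while 2 rose (10.9% called). Below ugt-63, the next fall was that of ugt-53, at 5.63, 6.06, 5.43 and 5.65 at 4 h, against 6.69, 6.91, 6.64 and 6.82 at 0 h, by 1.07 (SE 0.0760, adjusted p = 0.00327). The adjacent genes ugt-43 and ugt-44 fell by 0.68 and 0.55, the second of them chosen after its value was seen. Against them ugt-2, at 4.70, 5.11, 5.15 and 5.20 at 4 h, against 4.05, 4.34, 4.42 and 4.35 at 0 h, rose by 0.75 (adjusted p = 0.00327). The calls of cyp-35D1, cyp-37B1, ugt-2, ugt-63, ugt-53 and ugt-43 were kept in each fit without 1 replicate number. The call of cyp-35C1 was lost without replicate 2 or 4, ugt-44 without replicate 2, 3 or 4 and cyp-13A2 without any 1 number (adjusted p up to 0.107).

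Other detoxification families held calls in both directions. Of 43 glutathione S-transferase genes, gsto-1 (1.10) and gst-22 (0.79) rose, and gst-4 (-0.52), a reporter of the oxidative stress factor SKN-1, and gst-3 (-0.30) fell. Of 34 carboxylesterase genes 2 rose and 4 fell (17.6%, against 2.96% of all genes). Among them cest-24 (-1.02), cest-1.2 (-0.84) and cest-3 (-0.66) were lower and cest-15 (0.65) higher. At 4 h cest-24 lay near the lower quartile, and gst-3 lay near or under it at both times, so the sizes of these falls are uncertain. Among 30 short-chain dehydrogenases, dhs-18 rose by 0.74 and dhs-4 and dhs-25 fell by 0.87 and 0.32, and 1 of 5 flavin-containing monooxygenases, fmo-5, fell by 0.38. ABC transporters move lipids and compounds across membranes, and 4 of 56 rose while 1 fell (8.93% called). Apart from pmp-1 these included the P-glycoprotein gene pgp-9, at 7.40, 7.75, 7.54 and 7.85 at 4 h, against 6.69, 6.58, 6.73 and 6.58 at 0 h, higher by 0.99, and abt-4 (0.81). The calls of dhs-18, cest-15, cest-24, abt-4 and pmp-1 were kept in each fit without 1 replicate number. Those of gst-22 and cest-1.2 were lost without replicate 3, pgp-9 without replicate 4, dhs-4 without replicate 3 or 4, gsto-1, gst-4 and cest-3 without replicate 1, 3 or 4, and gst-3, dhs-25 and fmo-5 without any 1 number (adjusted p up to 0.188). Without the block gst-4 (adjusted p = 0.117), gst-3 (0.160) and dhs-25 (0.218) were not called.

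**Figure D4:**
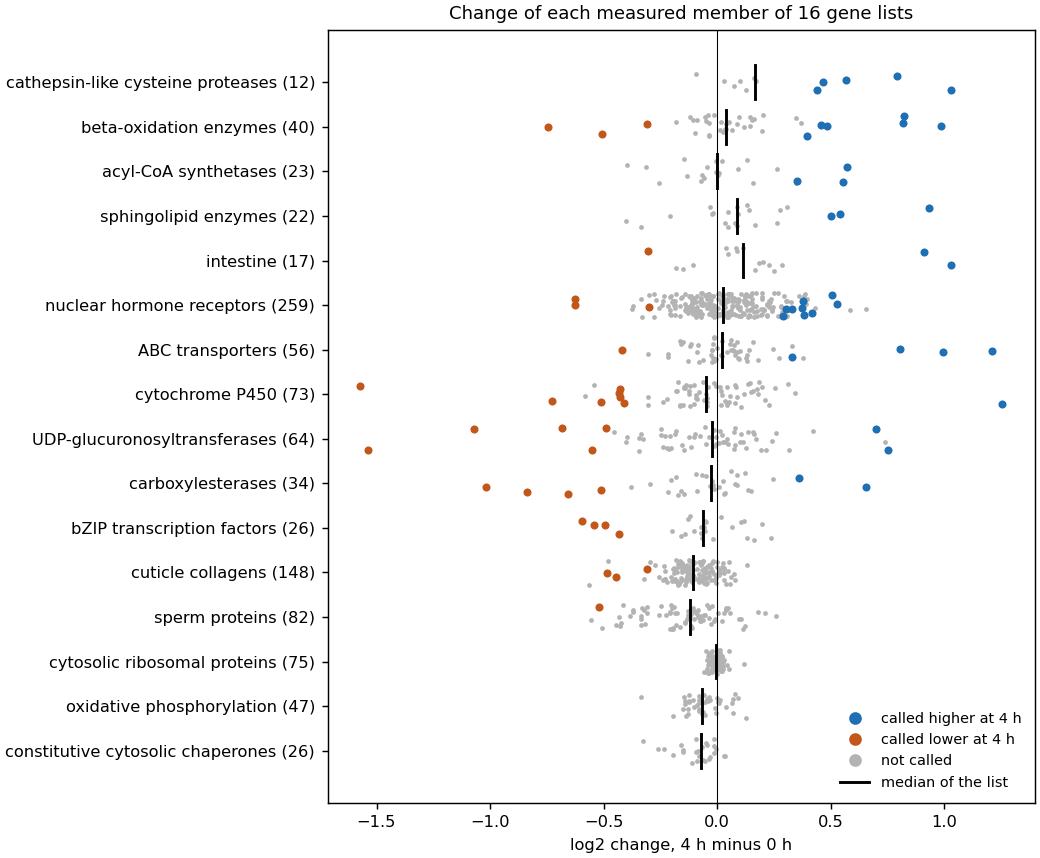
Log2 change at 4 h minus 0 h (horizontal axis, log2 units) of each measured member of 16 gene lists (rows, with the number of members), with called members in colour and a bar at the median of each list. Called cathepsin-like proteases lie right of 0 (median of the list 0.17), called bZIP factors left of it (median -0.06), and cytosolic ribosomal protein genes cluster at -0.01.

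In metal and haem handling, hrg-3 and the glutathione transferase-like gene cdr-2, of a family named for its response to cadmium, rose and mtl-1 fell among 38 genes. The gene cdr-2 was at 5.97, 6.62, 6.37 and 6.43 at 4 h, against 5.20, 5.68, 5.67 and 5.70 at 0 h, a rise of 0.78 (adjusted p = 0.00362). Among 31 genes of one-carbon, methionine and propionate metabolism, the cystathionine gamma-lyase genes, which make cysteine, moved apart. Of these, cth-1 was at 7.62, 8.27, 7.82 and 8.07 at 4 h, against 6.95, 7.31, 6.73 and 7.42 at 0 h, and rose by 0.84 (adjusted p = 0.00873). The other, cth-2, was at 9.71, 9.68, 9.47 and 9.38 at 4 h, against 10.08, 10.06, 9.92 and 10.04 at 0 h, and fell by 0.47 (adjusted p = 0.0232). The S-adenosylmethionine synthetase gene sams-1, which makes the methyl donor of the cell, fell by 0.51 on its main probe set, and its 2 other probe sets fell by 0.49 and 0.46. The cystathionase-type gene cbl-1, outside the lists and chosen after its value was seen, fell by 0.58 (adjusted p = 0.0103).

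Amino acid catabolism and osmolyte genes held few calls. The tyrosine aminotransferase gene tatn-1 rose by 0.48, the arginase gene argn-1 rose by 0.38 and the histidine ammonia-lyase gene haly-1 fell by 0.55 among 29 genes. Of 17 glycerol and trehalose genes, gpdh-1, which makes glycerol under osmotic stress, was at 6.28, 6.13, 6.42 and 5.94 at 4 h, against 7.06, 7.196, 6.95 and 7.08 at 0 h, and fell by 0.88 (adjusted p = 0.0128), and the trehalase gene tre-4 rose by 0.32. The purine nucleoside phosphorylase gene pnp-1 (0.81) and the arginine kinase gene argk-1 (0.77, next to cth-1) rose outside the lists and were chosen after their values were seen. Of the metal and amino acid genes, mtl-1, cdr-2, cth-1, anmt-3 and pnp-1 were called in each fit without 1 replicate number. The calls of hrg-3, cbl-1 and gpdh-1 were lost without replicate 4, haly-1 without replicate 3 or 4, sams-1 without replicate 1, 3 or 4, argk-1 without replicate 2, 3 or 4, and cth-2, tatn-1, argn-1 and tre-4 without any 1 number (adjusted p up to 0.169). Without the block argk-1 (adjusted p = 0.188), argn-1 (0.0595) and tre-4 (0.0707) were not called.

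Central energy metabolism did not pass. By limma 0 genes were called among 21 of glycolysis and gluconeogenesis (2 with an unadjusted p under 0.05), 29 of the tricarboxylic acid and glyoxylate cycles (2) and 47 of oxidative phosphorylation (5). Oxidative phosphorylation genes had a median of -0.07, with 37 of 47 below 0, and the smallest p was that of asb-2 (-0.19, adjusted p = 0.185). Mitochondrial ribosomal protein genes were likewise low, 54 of 59 being below 0 with a median of -0.08 and 1 called, mrps-21 (-0.34). Its call was lost without the block (adjusted p = 0.0695) and without any 1 replicate number (up to 0.153). The 75 cytosolic ribosomal protein genes had a median of -0.01, with 0 calls and 0 unadjusted p under 0.05. Genes of the nucleolus, where ribosomes are assembled, leaned the other way, with 23 of 27 above 0 and a median of 0.12, but 0 were called by limma (7 at an unadjusted p under 0.05).

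Defence genes, many of them secreted by the intestine, held rises and falls. Of 16 lysozyme genes 2 rose and 0 fell (12.5% called, against 2.96% of all genes). The first, lys-4, was at 10.72, 10.96, 10.99 and 10.64 at 4 h, against 10.03, 10.19, 10.27 and 10.06 at 0 h, a rise of 0.69 (adjusted p = 0.00458) without overlap, and lys-6 rose by 0.63. Among 42 antimicrobial peptide and saposin genes (4.76% called), the caenacin gene cnc-2 rose by 0.72 and spp-1, of the saposin family, fell by 0.41. The other probe set of spp-1 stood at -0.07. Of 220 C-type lectin genes 3 rose and 3 fell, a share of 2.73% near the 2.96% of all genes. Among them clec-67 (0.84) was higher, and clec-227 (-0.53) and clec-54 (-0.43) were lower besides clec-174. Of 12 galectin genes lec-11 (0.69) rose (8.33% called). Among 94 infection response and dod genes (6.38% called), scl-2 (0.69), pals-23 (0.80) and irg-3 (0.52) rose and irg-8 fell by 0.42. Of 40 transthyretin-like genes ttr-13 fell by 0.42 (2.5% called).

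Of the defence genes, lys-4 and clec-67 were called in each fit without 1 replicate number. The calls of scl-2 and pals-23 were lost without replicate 3, lec-11 without replicate 2 or 4, irg-3 without replicate 1, 2 or 4, clec-227, clec-54 and ttr-13 without replicate 2, 3 or 4, and lys-6, spp-1, cnc-2 and irg-8 without any 1 number (adjusted p up to 0.189). Without the block cnc-2 (adjusted p = 0.0702), clec-227 (0.0558) and irg-8 (0.102) were not called.

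Called bZIP, bHLH and homeobox factor genes were all lower at 4 h. Of 26 bZIP factors, many of which act in stress responses, 4 fell and 0 rose (15.4% called, against 2.96% of all genes). The gene atf-4, a factor of the response to amino acid and translation stress, was at 9.09, 9.10, 9.19 and 8.998 at 4 h, against 9.91, 9.77, 9.50 and 9.59 at 0 h. It fell by 0.59 (adjusted p = 0.0228) without overlap. The gene zip-3, which is known to restrain the mitochondrial stress factor ATFS-1, fell by 0.54 (adjusted p = 0.00887, other probe set -0.80), and zip-12 and zip-9 fell by 0.49 and 0.43. The factor zip-10, known from studies of cold shock, did not pass (0.24, adjusted p = 0.105). Of 30 bHLH factors 2 fell and 0 rose (6.67% called). The first was mxl-3, which in fed worms represses lysosomal lipase genes, at 6.70, 6.66, 6.33 and 6.27 at 4 h, against 7.31, 7.39, 6.88 and 6.91 at 0 h, lower by 0.63 (adjusted p = 0.00542), and mdl-1 was lower by 0.47. Of 83 homeobox factors ceh-74 (-0.63) and tab-1 (-0.30) fell, a share of 2.41% near the 2.96% of all genes.

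Nuclear hormone receptors, which bind lipophilic ligands and control metabolic genes, rose in 9 and fell in 3 of 259 cases, or 4.63% against 2.96% of all genes, with a median of 0.02. Examples were nhr-47 (0.53, other probe set 0.24), nhr-121 (0.51) and nhr-203 (0.38) higher and nhr-137 (-0.63) lower. Of the transcription factors named so far, mxl-3 was called in each fit without 1 replicate number. The calls of nhr-47 and zip-3 were lost without replicate 3 or 4, atf-4 and ceh-74 without replicate 1, 2 or 4, nhr-137 without replicate 2, 3 or 4, and nhr-121, nhr-203, zip-12, zip-9, mdl-1 and tab-1 without any 1 number (adjusted p up to 0.181). Without the block zip-9 (adjusted p = 0.0560), mdl-1 (0.133) and tab-1 (0.0693) were not called.

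In the insulin and FOXO pathway, which sets stress resistance and lifespan, the kinase gene sgk-1 was at 7.75, 7.70, 7.69 and 7.51 at 4 h, against 7.30, 7.18, 6.93 and 7.08 at 0 h. It rose by 0.54 (adjusted p = 0.0175), 1 of 17 genes, of which 15 lay above 0 with a median of 0.05. The FOXO gene daf-16 (0.08) and pqm-1 (0.24), which opposes it, did not pass. Of 24 insulin-like peptide genes ins-34 rose by 0.60 (adjusted p = 0.00465). Outside the lists, and chosen after their values were seen, regulator genes also changed. The doublesex-type factor gene dmd-7 was at 9.18, 9.13, 9.11 and 8.89 at 4 h, against 8.26, 8.07, 7.89 and 7.85 at 0 h, and rose by 1.06 (adjusted p = 0.00305, second probe set 1.08). The ETS factor gene ets-4 rose by 0.58, the forkhead factor gene fkh-9 by 0.47 and klf-3, a factor of fat metabolism, by 0.37. Of kinases, the MAP kinase-type genes kgb-2, pmk-3 and mak-1 rose by 0.85, 0.52 and 0.51, and the salt-inducible kinase gene kin-29 by 0.52. The calls of ets-4, dmd-7 and ins-34 were kept in each fit without 1 replicate number. The call of kgb-2 was lost without replicate 4, mak-1 without replicate 3 or 4, pmk-3 without replicate 1, 2 or 3, kin-29 without replicate 1, 3 or 4, sgk-1 without replicate 2, 3 or 4, and klf-3 and fkh-9 without any 1 number (adjusted p up to 0.154). Without the block klf-3 was not called (adjusted p = 0.206).

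Adaptors that bring proteins to ubiquitin ligases form large families in C. elegans, and their called genes went both ways. Of 310 F-box genes 3 rose and 3 fell, a share of 1.94%, against 2.96% of all genes. The gene fbxc-58 was at 5.12, 4.97, 5.33 and 5.44 at 4 h, against 3.78, 3.40, 4.36 and 4.42 at 0 h, a rise of 1.22 (SE 0.108, adjusted p = 0.00466). The gene fbxa-162 rose by 0.89, and fbxa-180 and fbxa-182 fell by 0.51 and 0.45. At 4 h fbxa-180 lay near the lower quartile, so the size of its fall is uncertain. Of 103 MATH and BTB domain genes 4 rose and 2 fell (5.83%), such as the neighbours bath-26 (0.68) and bath-47 (0.52), math-4 (0.68) and math-14 (0.67), all higher. Of 27 Skp1-related and cullin genes 7.41% were called. The cullin gene cul-6 rose by 0.42 and the Skp1-related gene skr-21 fell by 0.58. By limma 0 of 33 proteasome subunit genes passed, 1 at an unadjusted p under 0.05, with a median of -0.02. The calls of fbxc-58, fbxa-162 and bath-26 were kept in each fit without 1 replicate number. The call of bath-47 was lost without replicate 3 or 4, skr-21 without replicate 1, 2 or 4, math-14 and math-4 without replicate 2, 3 or 4, and fbxa-180, fbxa-182 and cul-6 without any 1 number (adjusted p up to 0.171).

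Neuronal lists held few calls each. None of the 18 genes of AFD thermosensory signalling was called by limma, and 1 had an unadjusted p under 0.05. The AFD receptor guanylyl cyclase genes gcy-8 (0.07), gcy-18 (0.03) and gcy-23 (-0.02) and the channel gene tax-4 (-0.08) stood near 0. Of 17 genes of the thermotaxis interneurons, hen-1, whose secreted product acts when worms weigh 1 sensory cue against another, fell by 0.67 (adjusted p = 0.0188), a share of 5.88%. It was at 5.89, 5.90, 5.65 and 6.14 at 4 h, against 6.41, 6.38, 6.63 and 6.85 at 0 h. Among 79 neuropeptide genes 0 were called by limma and 10 had an unadjusted p under 0.05, and of 29 pan-neuronal and synaptic genes aex-3 rose by 0.45 (other probe set 0.38), a share of 3.45%. Of 1275 chemoreceptor genes 3 rose, including srsx-34 (0.62, other probe sets 0.15 and 0.17) and str-245 (0.84), and 2 fell, srh-237 (-0.94) and srab-4 (-0.39), a share of 0.392% against 2.96% of all genes. In whole-animal RNA a change in few neurons could be missed. The call of srh-237 was lost without replicate 3, srsx-34 without replicate 4, hen-1 and str-245 without replicate 3 or 4, srab-4 without replicate 2, 3 or 4 and aex-3 without any 1 number (adjusted p up to 0.152). With the mean of a gene's probe sets srsx-34 was not called. Without the block srab-4 was not called (adjusted p = 0.182).

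Cuticle collagen and sperm protein genes lay mostly below 0, with few calls. Of 148 cuticle collagen genes 130 lay below 0 with a median of -0.11, against 9353 of all 17118 genes below 0. Among the collagen genes 3 fell, col-139 by 0.49, col-158 by 0.44 and col-118 by 0.31, while 0 rose. The share called was 2.03%, against 2.96% of all genes. The cuticlin-like gene cutl-18 was at 4.87, 5.16, 4.85 and 4.95 at 4 h, against 5.96, 5.66, 5.90 and 5.82 at 0 h. It fell by 0.87 (adjusted p = 0.0119), 1 of 40 in its list (2.5% called). Among 82 hedgehog-related and patched-related genes ptr-24 (0.41) and ptr-20 (0.34) rose and wrt-10 fell by 0.52 (3.66% called). At both times ptr-20 lay near or under the lower quartile, so the size of its rise is uncertain. Of 82 sperm protein genes 67 lay below 0, with a median of -0.12, and 1 fell, ssp-10 by 0.52 (1.22% called). The sperm median was -0.03, -0.29, -0.13 and -0.08 in pairs 1 to 4, so that pair 2 stood lowest. Of 55 early zygotic genes 3 fell, sdz-6, sdz-24 (-0.90) and sdz-37 (-0.38), a share of 5.45%.

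Eggshell and oocyte genes (33, median 0.02), germline and meiosis genes (50, 0.02) and yolk genes (7, 0.00) held 0 calls by limma, with 1, 3 and 0 at an unadjusted p under 0.05. In the cytoskeleton list the intermediate filament gene ifd-2 (0.47) and the tubulin gene tba-7 (0.51) rose and tba-4 fell by 0.38. None of the cuticle, sperm, zygotic and cytoskeleton calls held in every fit without 1 replicate number. Those of sdz-6 and sdz-24 were lost without replicate 3, cutl-18 without replicate 3 or 4, tba-7 without replicate 1, 3 or 4, and col-139, ptr-24 and wrt-10 without replicate 2, 3 or 4. Those of col-118, col-158, ptr-20, ssp-10, sdz-37, ifd-2 and tba-4 were lost without any 1 number (adjusted p up to 0.186). Without the block col-139 (adjusted p = 0.0570), ptr-20 (0.191), wrt-10 (0.0685), sdz-37 (0.0708), ifd-2 (0.0692) and tba-4 (0.0632) were not called.

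Some called genes lie next to each other. Of 13561 pairs of adjacent measured genes both were called in 34, with the same direction in 26 (18 higher and 8 lower). Of all genes 2.96% were called. How many such pairs that share alone would give was not tested, so nothing is concluded from the count. The longest run was on chromosome IV, where the F-box gene fbxc-58 and the clone-named genes C10C5.3, C10C5.4 and C10C5.5 all rose. Of these, C10C5.3 was at 6.98, 7.38, 7.12 and 7.003 at 4 h, against 5.86, 6.36, 6.09 and 6.05 at 0 h, a rise of 1.03 (adjusted p = 0.00199), C10C5.4 rose by 0.58 and C10C5.5 was at 7.41, 7.44, 7.63 and 7.36 at 4 h, against 6.32, 6.09, 5.52 and 5.92 at 0 h. In each of these genes every 4 h array lay above every 0 h array. On the X chromosome F46G10.4 (0.44) and ptr-24 (0.41) rose next to mxl-3, which fell. Also on the X chromosome, the ammonium transporter-type genes amt-4 and amt-1, chosen after their values were seen, moved apart. The gene amt-4 was at 8.17, 8.64, 8.88 and 8.65 at 4 h, against 9.28, 9.31, 9.30 and 9.45 at 0 h, a fall of 0.75. Its neighbour amt-1 was at 7.02, 7.51, 7.03 and 6.69 at 4 h, against 6.37, 6.77, 6.32 and 6.36 at 0 h, a rise of 0.61 with overlapping groups. Without 1 replicate number, C10C5.3, fbxc-58 and mxl-3 remained called, C10C5.5 was lost without replicate 4, amt-4 without replicate 2 or 4, amt-1 without replicate 1, 2 or 3, and C10C5.4, F46G10.4 and ptr-24 without replicate 2, 3 or 4 (adjusted p up to 0.152). Without the block amt-1 was not called (adjusted p = 0.0864).

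Where a called gene had more than 1 single-symbol probe set, the others mostly moved with it. Of 90 such genes, 82 had all other probe sets on the same side of 0, 41 had another called in the same direction and 0 had one called in the opposite direction. A further 44 genes were called only by a dimmer probe set and are not among the 506. Of the 87 gene lists, 55 held at least 1 called gene and 32 held 0. The 32 lists cover 936 genes, of which 100 (10.7%) had an unadjusted p under 0.05, against 17.7% of all genes. These lists were picked for holding 0 called genes, which by itself favours a lower share, so nothing is concluded from it. Over all lists, 169 of 4933 genes were called.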

How the data were processed

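Total RNA of whole animals was measured on 12 Affymetrix arrays, of which the 8 at 4 h and 0 h were used. Per the labels' protocols, cDNA was amplified, then cut and biotinylated with a NuGEN module. The authors deposited 1 log2 value for each probe set and array, made with RMA according to the submitters' processing notes (no version is named). The base of 2 is an inference from RMA's usual output and from values running from 1.508 to 14.36. A genome build is not given in the sources used here. No scanner files were used, so signal over background was not assessed, and the number of arrays limits the precision. No 2 arrays were identical.

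Of 22548 probe sets, the platform annotation gives 1 symbol for 20766 and several for 887, and 895 are unnamed here. A WBcel235 gene table from RefSeq matched 20701 of the single-symbol probe sets by gene identifier, changed 0 symbols and gave the order of neighbouring genes. The brightest probe set over the 8 arrays stood for each of 17118 genes, 2981 of which had several.

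Time and replicate number were the terms of a linear model of the 8 arrays, fitted by lmFit and eBayes of limma 3.58.1 (R 4.3.3), which left 3 residual and added 3.63 prior degrees of freedom. Tests were two-sided, and the Benjamini-Hochberg adjustment ran over all 22548 probe sets, with a threshold of 0.05. SE is the moderated standard error. The fit was also run on simulated data with the fitted pair effects and otherwise independent noise. That run could not test correlated errors, and its outcome is not used here as support. Tables were made with Python 3.11.15, pandas 2.3.3 and numpy 2.4.6, and figures with matplotlib 3.10.9.

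Deviations from the group means correlated between a 4 h and a 0 h array of the same number in all 4 pairs (r = 0.169 to 0.314), and less between arrays of different numbers. Numbers 1 and 2, and numbers 3 and 4, gave r of 0.0362 to 0.147 with each other, whereas r was -0.29 to -0.122 between these blocks. The numbers come from the sample titles, which do not say what a shared number means, and the use of the numbers as pairs rests on these correlations.

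The members, the 87 lists and the rule for named genes were chosen with earlier results of these data known. By that rule the text names, from called genes with 1 sign in all 4 pairs, 15 rises and 15 falls of greatest size. It adds up to 4 called genes per list by smallest adjusted p (or 1 by smallest p where none was called), 23 genes of heat shock, thermosensation, lipids, yolk and cold, and runs of at least 3 called neighbours. Alternatives were fits without the replicate block, with all 12 arrays, with a trended robust variance, on the brighter 50% of probe sets, without cross-hybridising probe sets, with median centring or another quantile normalisation, with the mean of a gene's probe sets, and without each replicate number. In a fit without 1 number both its arrays are left out and 2 residual degrees of freedom remain.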

Additional observations from a re-analysis of the deposited data

Results flagged for a closer look

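In 22 of the 452 groups of 4 arrays examined for the named genes, 1 array stood far from the 3 others by Dixon's criterion, and chance alone flags about 1 in 20 groups. Among 4 h arrays, replicate 1 was lowest for hsp-16.2 at 2.94 (others 3.91 to 4.08), and highest for aex-3 at 6.40 (6.05 to 6.10), ets-4 at 8.12 (7.91 to 7.93), gcy-18 at 5.20 (4.75 to 4.79) and ptr-24 at 6.49 (others 6.44). Replicate 2 at 4 h was highest for hsp-70 at 3.42 (3.14 to 3.16). Replicate 4 at 4 h was highest for anmt-3 at 6.34 (5.69 to 5.70) and for the argonaute gene nrde-3 at 8.51 (8.19 to 8.23), and lowest for acox-1.5 at 6.80 (6.98 to 7.01). Among 0 h arrays, replicate 1 was lowest for K05B2.4 at 3.43 (4.13 to 4.24), cdr-2 at 5.20 (5.67 to 5.70), cest-15 at 4.45 (4.64 to 4.67), gcy-8 at 3.76 (3.89 to 3.91) and wrt-10 at 4.797 (5.28 to 5.37). It was highest for ptr-24 at 6.22 (5.97 to 5.996) and for the histone gene his-37 at 10.33 (10.12 to 10.13). Replicate 2 at 0 h was highest for amt-1 at 6.77 (6.32 to 6.37) and lowest for gst-3 at 3.30 (3.59 to 3.64) and hsp-90 at 13.12 (13.19 to 13.20). Replicate 4 at 0 h was highest for col-139 at 8.93 (8.43 to 8.48) and ptr-20 at 3.47 (3.12 to 3.17), and lowest for slc-17.6 at 7.22 (7.30 to 7.31). The rises of K05B2.4 in the 4 pairs were 1.64, 1.27, 1.27 and 0.99.

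Probe sets with several symbols or none stood outside the comparison. Of 1782 such probe sets 38 were called, 15 higher and 23 lower. The largest of them were the probe set shared by hsp-16.48 and hsp-16.49 (3.55 ± 0.461 at 4 h and 6.33 ± 0.554 at 0 h, SD, n = 4 each, log2 change -2.79, adjusted p = 0.00199) and that shared by hsp-16.1 and hsp-16.11 (5.02 ± 0.509 at 4 h and 7.57 ± 0.335 at 0 h, log2 change -2.55). Both probe sets shared by F44E5.5 and F44E5.4 were also called lower (-0.88 and -0.76). Others were shared by T28C12.5 and cest-24 (-0.95) and by clec-69 and clec-67 (0.88), whose single-symbol probe sets for cest-24 and clec-67 were called in the same directions.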

How the results depend on the processing

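No called change of a gene named in the text turned its direction under these alternatives. Of 2599 recomputed values of named genes 2087 kept their side of the threshold, 38 were newly called and 474 lost their call. Of 1044 recomputed list counts, 728 stayed within 1.5 times and 316 moved. Counts depended on how the spread is estimated. With a trended robust variance 1661 probe sets were called (948 higher, 713 lower), 751 genes higher and 641 lower, and 402 list members. On the brighter 50% of probe sets 1028 were called (595 higher, 433 lower), with 473 genes higher and 385 lower. Leaving out 1 replicate number gave 117 to 321 probe sets (74 to 209 higher, 43 to 112 lower), 68 to 166 genes higher and 41 to 107 lower, and 42 to 94 list members, with fewer residual degrees of freedom. Without the replicate block, the 8 arrays gave 538 probe sets (331 higher, 207 lower) and 270 genes higher and 188 lower, and of the 154 named called genes 126 were still called. Besides the calls given in the report as lost there, the block changed no named call from called to not called. All 12 arrays without the block gave 247 genes higher and 178 lower, and of the same 154 genes 120 were still called. Among all called genes that the text names, those lost in that fit but not in the 8 arrays without the block were hrg-3 (adjusted p = 0.0823), oac-31 (0.204), ttr-13 (0.133), irg-3 (0.108), clec-67 (0.105), amt-4 and ets-4 (both 0.0722), lec-11 (0.0668), zip-12 (0.0638), asp-17 (0.0602), acox-3 (0.0554), cpr-5 (0.0553), cyp-35D1 (0.0516), and cth-1 and hacd-1 (both 0.0513). Median centring, repeated quantile normalisation, the mean of a gene's probe sets and the removal of cross-hybridising probe sets kept the counts within 1.5 times. The share of called genes that were higher stayed between 53.95% and 62.93%, against 58.3%. Signal over background could not be assessed, and 2 groups of 4 arrays limit what can be called.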

Other observations

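Called genes were spread over all nuclear chromosomes. The share of measured genes called was 4.08% on the X chromosome (62 higher and 34 lower), 3.34% on chromosome IV, 3.34% on V, 2.72% on II, 2.27% on III and 1.66% on I, where 23 genes were higher and 18 lower. Chromosomes differ in the genes they hold and in signal level, and the difference was not tested.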
